A study of Mus musculus with 6 samples.

Results

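The 34 genes described here cover the breakdown of glucose to lactate and the response of cells to low oxygen: glucose carriers, the enzymes of glycolysis with several isozymes, lactate carriers, the switches that steer pyruvate, the oxygen sensors and 3 common targets of hypoxia-inducible factor (HIF). They were picked by symbol from the 46983 genes of the count table, and all 34 were found and passed the filter on low counts. RNA was sequenced from whole hearts of mouse embryos at E13.5, in mid-gestation, with 1 heart per library. The mutant group (TnnT2Cre;Wt1flox, hearts 1, 5 and 10) lacked the transcription factor WT1 in cells that express Cre under the cardiac troponin T promoter, and the group labelled wild type (hearts 2, 3 and 5) carried both floxed Wt1 alleles without Cre, according to the methods. The troponin T driver recombines nearly the whole myocardium and also some epicardial cells, so loss of Wt1 is not restricted to heart muscle. A whole heart holds muscle, endothelium, epicardium, connective tissue, macrophages and blood, and fewer cells of a type cannot be told apart from less RNA per cell.

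Glycolysis splits glucose into pyruvate through a fixed chain of enzymes, and lactate dehydrogenase turns pyruvate into lactate so that the chain can run without oxygen. The embryonic heart depends on this route, and the heart shifts to burning fatty acids around birth. When oxygen falls, prolyl hydroxylases no longer mark the HIF alpha subunits for degradation, and HIF then binds short DNA elements beside many glycolytic genes and raises their transcription. HIF alpha is controlled mostly through protein stability, which RNA does not report.

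The total depth lay between 44244665 and 56373393 counts per heart. The check of the targeted gene was not clear in whole hearts: Wt1 was at 40.0, 32.9 and 19.97 CPM (counts scaled by library size and TMM factors) in wild type hearts 2, 3 and 5 and at 17.7, 33.3 and 35.7 CPM in mutant hearts 1, 5 and 10. These groups overlapped, and the log2 fold change was -0.10 ± 0.31 (SE), with an adjusted p of 0.990 in edgeR's quasi-likelihood test. Cardiomyocyte markers were abundant in every heart, with 12 genes summing to between 26954 and 33014 CPM. Some libraries stood apart. Wild type heart 5 was the shallowest and showed a trend with gene length, with a Spearman's rho of -0.56 across 11795 genes between gene length and the deviation from the mean of the 6 hearts, against -0.06 to 0.46 in the other hearts. Erythroid markers summed to 39277 CPM in wild type heart 5 and 42671 CPM in mutant heart 10, against 12470 to 16938 CPM in the others. Hepatocyte markers summed to 791 CPM in wild type heart 3 and to 1.89 to 21.8 CPM elsewhere.

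Most glycolysis and hypoxia genes were slightly higher in mutant hearts, but none passed the test. The log2 fold change was above 0 for 29 of the 34 genes (85.3%), against 49.8% of all 17473 genes tested, and its median was 0.18, against -0.0010 over all genes tested. It ran from -0.69 for Gapdh to 0.55 for Ndrg1. Adjusted p-values of the 34 genes lay between 0.728 and 1 in edgeR's quasi-likelihood test, which called 0 genes of the whole table (0%) at an adjusted p under 0.05 and 1002 (5.73%) at an unadjusted p under 0.05. By that unadjusted limit 2 of the 34 genes were higher, Aldoc and Ndrg1, against 3.14% of all genes, and 0 were lower, against 2.59%. DESeq2, the tool of the original study, called 132 of 19493 genes (0.677%) at an adjusted p under 0.05, and 0 of these 34, whose lowest adjusted p there was 0.461. The 34 genes share regulators and hearts, so their common direction is not 29 separate observations.

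Single hearts differed in how far they carried this direction. In 7 genes (Pfkp, Aldoa, Aldoc, Pgk1, Ldha, Slc16a3 and Pdk1) every mutant heart lay above every wild type heart, a pattern that 6.61% of all genes tested had, and in 0 of the 34 did every mutant heart lie below, against 4.59% (11.2% in either direction). Mutant heart 10 was the highest of the 6 hearts for 24 of the 34 genes, and mutant heart 5 for 4. Wild type heart 5 was the lowest of the 6 for 17 genes. The 27 genes of glucose breakdown and its regulation deviated from the mean of the 6 hearts, in log2 CPM, by an average of -0.01, -0.02 and -0.15 in wild type hearts 2, 3 and 5 and by -0.04, 0.09 and 0.12 in mutant hearts 1, 5 and 10. Mutant heart 1 lay within the wild type range for this average, which turned on Gapdh: over the other 26 genes it was -0.046, -0.046 and -0.16 in the wild type hearts and -0.042, 0.061 and 0.23 in the mutant hearts, so that mutant heart 1 lay just above the wild type hearts. The 7 oxygen-sensing and HIF target genes deviated by -0.16, -0.11 and 0.02 in the same wild type hearts and by -0.04, 0.12 and 0.17 in the mutant hearts. For the average of these 7, wild type heart 5 was the highest of its group rather than the lowest. The single genes differed there, from 0.43 for Bnip3 to -0.55 for Epas1.

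**Figure D1:**
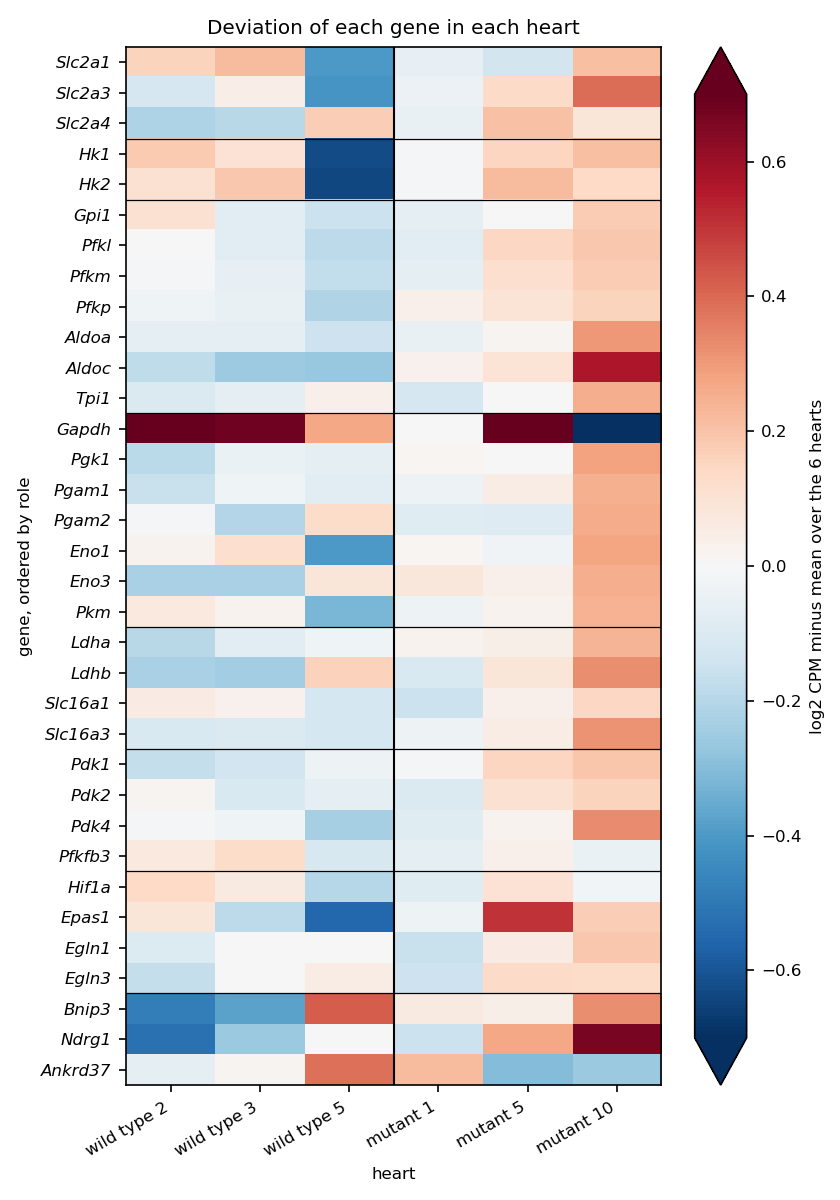
Deviation of log2 CPM from the mean of the 6 hearts for each of the 34 genes (rows, ordered by role) in each heart (columns), with red above and blue below the mean and colours ending at 0.7 log2 units. Mutant heart 10 is red in most rows, wild type heart 5 is blue in many glycolytic rows, and Gapdh in mutant heart 10 is the deepest blue.

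Leaving out those hearts moved the result. Without mutant heart 10, 26 of the 34 genes were above 0, the median log2 fold change was 0.09, and 0 genes had an unadjusted p under 0.05. Without wild type heart 5, 26 genes were above 0 and the median was 0.13, while 8 genes reached an unadjusted p under 0.05: Aldoc, Bnip3, Eno3, Ldha, Ldhb, Ndrg1, Pdk1 and Slc2a4. The lowest adjusted p of the 34 was then 0.0897. The share of all genes below the unadjusted limit without this heart is not given here, so the 8 cannot be set against the whole table. Markers of cell types moved in both directions. Of 7 macrophage markers, 5 had every mutant heart above every wild type heart, and the list summed to 73.8, 86.7 and 89.3 CPM in wild type hearts and 116, 122 and 131 CPM in mutant hearts. All 8 endothelial markers had a log2 fold change above 0, with a median of 0.28, and summed to between 840 and 1258 CPM in wild type hearts and between 1105 and 1397 CPM in mutant hearts. The 7 fibroblast and mesenchyme markers, with a median of 0.21, summed to 2998, 3135 and 2197 CPM in wild type hearts and to 3151, 4454 and 3917 CPM in mutant hearts, which did not overlap. In edgeR 0 markers of these 3 lists had an adjusted p under 0.05, and 9 had an unadjusted p under 0.05, while DESeq2 called 2, both of macrophages. Of the other lists, 9 of 12 cardiomyocyte markers were above 0, with a median of 0.13, and the 8 epicardial markers split 4 to 4. Few were above 0 among erythroid (3 of 11), skeletal muscle (1 of 6), neural (1 of 6) and hepatocyte (0 of 6) markers. In these lists edgeR called 0 at an adjusted p under 0.05, and DESeq2 called 2, both epicardial. The part of any of these cell types in the levels of the 34 genes was not tested.

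**Figure D2:**
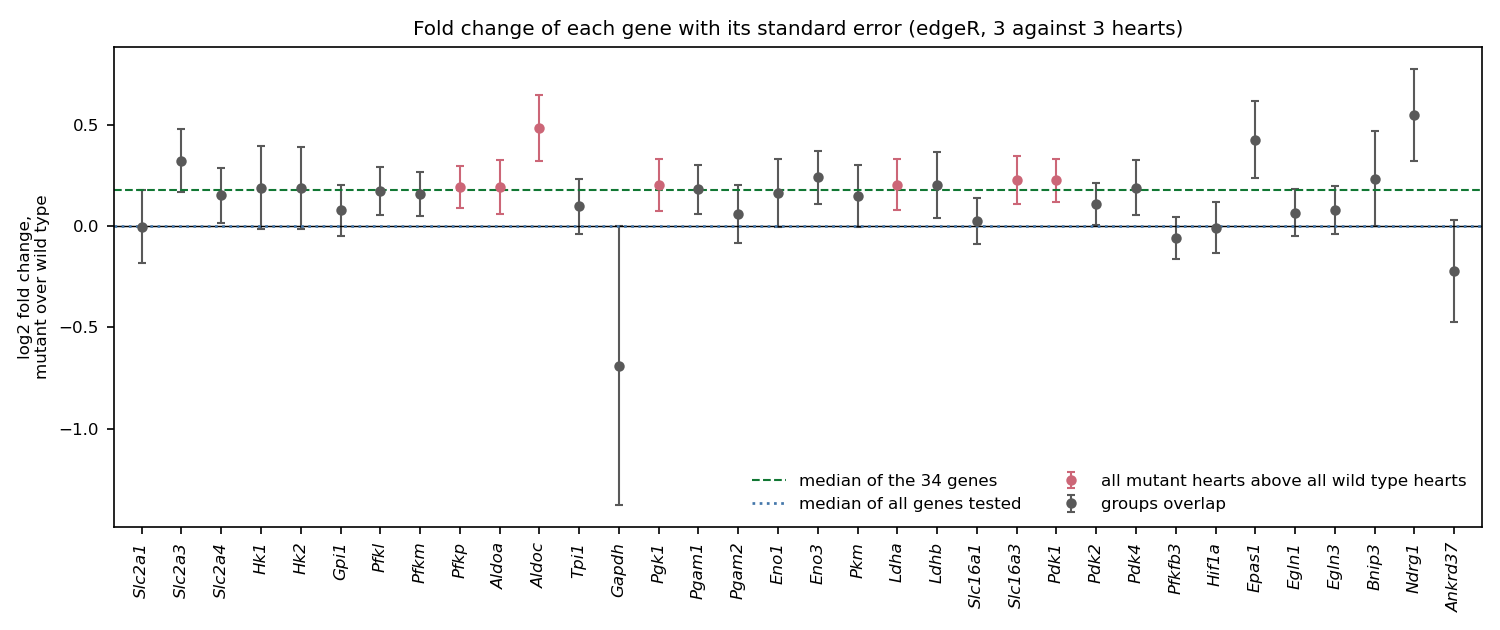
Log2 fold change, mutant over wild type, of each of the 34 genes with its standard error from edgeR (vertical axis), in the order of their roles. Most points lie near the dashed median of 0.18, the 7 genes in red have groups that do not overlap, and Gapdh at -0.69 has the widest error.

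HIF binds the letters ACGTG or GCGTG, so the promoters of these genes were read for that core on both strands. RefSeq promoter windows (GRCm38.p6, from 250 bases before to 50 bases after a start) were matched for 30 of the 34 genes, with 44 windows in all, and 4 genes (Slc2a3, Slc2a4, Epas1 and Ndrg1) had none. At least 1 core stood in 35 of the 44 windows (79.5%), against 43.8% of 32851 windows of all genes in the count table and 60.0% of 14136 windows of genes with at least 10 counts in every heart. The stricter ACGTG stood in 23 of the 44 (52.3%), against 19.6% and 24.4%. Windows of these genes had a median GC content of 62.3% and a median of 20 CG pairs, close to the 60.7% and 19 of the detected genes and above the 52.7% and 7 of all genes. Counted by gene, 27 of 30 (90%) held a core in at least 1 window, against 46.7% of 27025 genes in the count table and 66.0% of 11049 detected genes, although these genes had more windows each (44 over 30 genes, against 14136 over 11049). Gpi1, Tpi1 and Pgam2 held none. A match is a description of the letters and not a bound site, and several of these genes are textbook HIF targets.

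For 5 of the 7 genes whose mutant and wild type hearts did not overlap, the window with the most cores is shown. These 5 cover the sugar-splitting, ATP-making, lactate-making, lactate-exporting and pyruvate-gating steps. All 5 lie on the plus strand, at chr11:78322823-78323122 (Aldoc), chr7:46845554-46845853 (Ldha), chrX:106186850-106187149 (Pgk1), chr11:120948817-120949116 (Slc16a3) and chr2:71872974-71873273 (Pdk1). Capitals mark the cores, which read ACGTG or GCGTG, or their reverse complements where the core lies on the minus strand.
Aldoc: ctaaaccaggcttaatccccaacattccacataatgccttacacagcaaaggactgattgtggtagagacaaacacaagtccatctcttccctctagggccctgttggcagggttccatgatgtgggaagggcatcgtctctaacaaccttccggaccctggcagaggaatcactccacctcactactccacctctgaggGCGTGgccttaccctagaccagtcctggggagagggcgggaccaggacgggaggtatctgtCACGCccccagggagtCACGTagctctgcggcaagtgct
Ldha: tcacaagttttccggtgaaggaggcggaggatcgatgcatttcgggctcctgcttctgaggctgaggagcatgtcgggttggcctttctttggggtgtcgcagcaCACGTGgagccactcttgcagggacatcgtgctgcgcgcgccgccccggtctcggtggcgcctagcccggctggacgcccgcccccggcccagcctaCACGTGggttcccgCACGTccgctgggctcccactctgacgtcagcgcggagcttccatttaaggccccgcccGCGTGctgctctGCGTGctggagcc
Pgk1: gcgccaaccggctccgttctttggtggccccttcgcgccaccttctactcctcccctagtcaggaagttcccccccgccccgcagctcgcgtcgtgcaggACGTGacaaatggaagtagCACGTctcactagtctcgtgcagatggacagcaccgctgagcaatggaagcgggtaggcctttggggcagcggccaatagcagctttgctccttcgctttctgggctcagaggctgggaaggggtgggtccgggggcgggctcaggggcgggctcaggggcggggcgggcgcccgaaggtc
Slc16a3: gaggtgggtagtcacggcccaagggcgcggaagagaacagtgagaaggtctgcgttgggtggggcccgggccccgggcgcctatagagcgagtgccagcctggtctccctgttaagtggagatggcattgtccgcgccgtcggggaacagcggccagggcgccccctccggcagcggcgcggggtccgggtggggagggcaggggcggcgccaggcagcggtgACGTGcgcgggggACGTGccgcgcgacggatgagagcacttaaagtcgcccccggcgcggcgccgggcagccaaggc
Pdk1: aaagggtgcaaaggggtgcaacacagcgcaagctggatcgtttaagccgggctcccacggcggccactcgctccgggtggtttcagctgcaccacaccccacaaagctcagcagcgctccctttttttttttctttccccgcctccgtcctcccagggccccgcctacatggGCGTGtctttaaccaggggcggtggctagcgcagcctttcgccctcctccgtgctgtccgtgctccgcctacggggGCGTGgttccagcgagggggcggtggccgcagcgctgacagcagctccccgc
The Ldha window held 7 cores and was the richest of the 44, each palindrome of 6 letters being counted once per strand. The Aldoc window shown held 3 cores, and those of Pgk1, Slc16a3 and Pdk1 held 2 each. Aldoc, Ldha and Pdk1 each have a second window, not shown, with 1, 2 and 0 cores. In Pgk1 and Slc16a3 both cores were ACGTG, whereas both in the Pdk1 window shown were GCGTG. Pfkp and Aldoa, whose groups did not overlap either, are not shown. The Pfkp window held 4 cores, all GCGTG, and the Aldoa windows held 1, 1 and 0. Whether cores go with the fold changes was not tested.

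Levels differed far more between genes than between groups. In FPKM (counts divided by gene length and by the total of the heart), wild type means ran from 1886 ± 98.5 (SD, n = 3) for Ldha to 3.29 ± 0.534 for Ankrd37. Tpi1, the triose isomerase, followed Ldha at 1883 ± 72.3 FPKM, a difference smaller than the SD of either. Eno1 came next at 1130.1 ± 217, Aldoa at 1046 ± 44.8, Pgk1 at 896 ± 46.2 and Pkm at 688 ± 105. Eno1 and Aldoa differed by less than the SD of Eno1, and Pkm and Ldhb (609 ± 92.1 FPKM) by less than the SD of either, whereas Pgk1 was separated from both its neighbours by more than their SDs. Aldoc, Epas1, Ndrg1, Egln3 and Ankrd37 were the low genes, all under 10 FPKM in wild type hearts. This order rests on the 1 length per gene behind the deposited FPKM. That length was 933 bases for Ldha, 723 for Tpi1 and 934 for Eno1. Their longest principal coding transcripts in GENCODE M21 have 1766, 1607 and 2027 bases, whereas Pkm has 2432 bases by both. The order under other lengths was not tested.

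**Figure D3:**
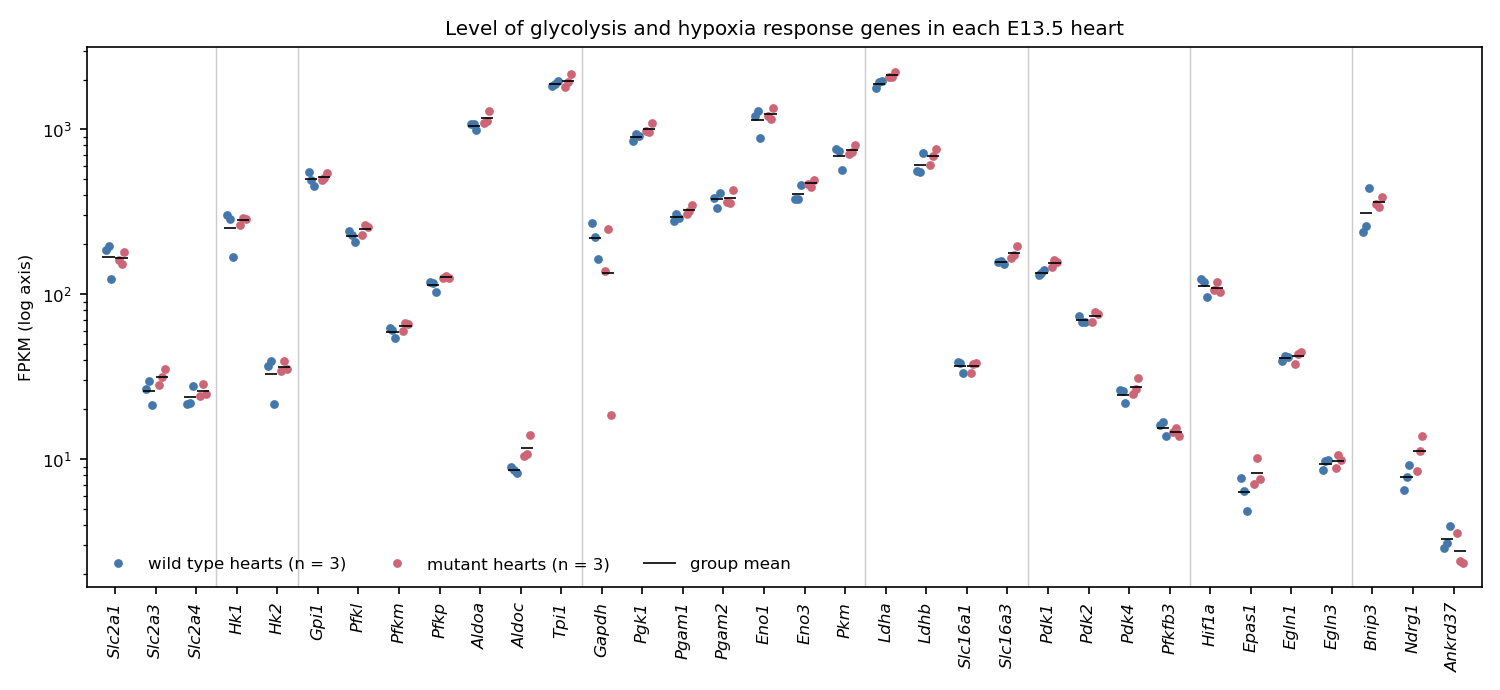
FPKM of each of the 34 genes (log axis) in each of 3 wild type and 3 mutant hearts, with a bar at each group mean, in the order of the pathway. Ldha and Tpi1 are the highest, at wild type means of 1886 and 1883 FPKM, Ankrd37 is the lowest at 3.29, and Gapdh alone has a heart, mutant 10, far below the rest.

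Glucose enters through the Slc2a carriers. Slc2a1 (GLUT1), the main carrier of embryonic tissue, was at 314, 329 and 214 CPM in wild type hearts 2, 3 and 5 and at 270.5, 258 and 326 CPM in mutant hearts 1, 5 and 10. The groups overlapped fully, and the log2 fold change was -0.0023 ± 0.18 (SE). Slc2a3 (GLUT3), a high-affinity carrier, had a log2 fold change of 0.32 ± 0.16, and Slc2a4 (GLUT4), the insulin-responsive carrier of muscle, of 0.15 ± 0.14. Slc2a1 made up 76.8% of the carrier FPKM in wild type and 74.1% in mutant hearts.

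Hexokinases trap glucose as its phosphate. Hk1 was at 384, 364 and 219 CPM in the wild type hearts and at 335, 375 and 392 CPM in the mutant hearts. Wild type heart 5 was far below all others, and the remaining hearts overlapped. The log2 fold changes of Hk1 and of Hk2, the isozyme of muscle and of growing cells, were both 0.19, with SEs of 0.20, and turned to -0.03 for both without wild type heart 5. Hk1 held 88.5% of the hexokinase FPKM in both groups.

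The 7 genes from glucose phosphate to triose phosphate all had log2 fold changes above 0, from 0.08 for Gpi1, the phosphoglucose isomerase, to 0.48 for Aldoc. Pfkl, the liver-type subunit of phosphofructokinase and the most abundant of its 3 genes here, was at 321, 304 and 283 CPM in wild type hearts and at 304, 354 and 365 CPM in mutant hearts. Mutant heart 1 lay inside the wild type range. Pfkp, the platelet-type subunit, was at 195, 193 and 173 CPM in wild type and at 205, 214 and 223 CPM in mutant hearts. Every mutant heart lay above every wild type heart, by a log2 fold change of 0.19 ± 0.10, with an adjusted p of 0.939 in edgeR. Pfkm, the muscle-type subunit, had a log2 fold change of 0.16 ± 0.11.

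Aldolase splits the 6-carbon sugar into 3-carbon pieces. Aldoa, the muscle and general form, was at 1083, 1077 and 1024 CPM in wild type hearts and at 1091, 1146 and 1398 CPM in mutant hearts. The groups did not overlap, but mutant heart 1 was close to the wild type hearts and heart 10 stood well above. Its log2 fold change was 0.19 ± 0.13, and 0.08 without mutant heart 10. Aldoc, the form best known from brain, was at 10.2, 9.70 and 9.63 CPM in wild type and at 11.8, 12.4 and 17.2 CPM in mutant hearts. Wild type hearts were tightly grouped and all mutant hearts lay above them, with heart 10 the highest. The log2 fold change was 0.48 ± 0.16, with an unadjusted p of 0.0168 and an adjusted p of 0.728 in edgeR's quasi-likelihood test, and it was 0.30 without mutant heart 10. Aldoc stayed a minor form, at 0.814% of the aldolase FPKM in wild type and 0.990% in mutant hearts. Tpi1 had a log2 fold change of 0.10 ± 0.14.

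The lower part of the pathway makes ATP and ends in pyruvate, and 6 of its 7 genes had log2 fold changes above 0. Pgk1, the first ATP-making enzyme, was at 1200.4, 1323 and 1309 CPM in wild type hearts and at 1377, 1371 and 1659.6 CPM in mutant hearts. The groups did not overlap, and mutant hearts 1 and 5 exceeded the top wild type heart only slightly. Pgk1 gave a log2 fold change of 0.20 ± 0.13, with an adjusted p of 0.966 in edgeR, and of 0.11 without mutant heart 10. Pgam2, the muscle form of phosphoglycerate mutase, was at 316, 276 and 348 CPM in wild type and at 300.1, 299 and 381 CPM in mutant hearts. These overlapped, and Pgam1, the general form, had a log2 fold change of 0.18 ± 0.12 against 0.06 ± 0.14 for Pgam2. Eno1, the general enolase, was at 1113, 1187 and 830.2 CPM in wild type hearts and at 1105, 1077 and 1325 CPM in mutant hearts. Wild type heart 5 was again the lowest, and the other hearts overlapped apart from mutant heart 10. Eno3, the muscle enolase, had a log2 fold change of 0.24 ± 0.13, Eno1 of 0.16 ± 0.17, and Pkm, the pyruvate kinase of muscle and embryo, of 0.15 ± 0.15.

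Gapdh was the exception, and its values were singled out after they were seen. The enzyme oxidises triose phosphate, and its transcript served as one of the internal controls in the study's quantitative PCR. It was at 252, 205 and 154 CPM in wild type hearts 2, 3 and 5 and at 128, 233 and 18.4 CPM in mutant hearts 1, 5 and 10. Mutant heart 10 was far below every other heart, while mutant heart 5 lay inside the wild type range. Its log2 fold change was -0.69 ± 0.69, with an adjusted p of 0.985 in edgeR, and it was -0.17 without mutant heart 10 and -1.48 without mutant heart 5. The coefficient of variation was 23.9% among wild type and 84.8% among mutant hearts. In FPKM, Gapdh reached 218 ± 54.0 in wild type hearts, well under Tpi1 and Pgk1, the steps on either side of it. The counts kept only uniquely mapped reads, and 941 of the 1271 windows of 150 bases along its transcript (74.0%) also occur letter for letter in transcripts of 49 other genes in GENCODE M21. Near-identical copies (at least 90% identity over at least 300 bases) numbered 177, of which 164 were in the count table. Together the copies received 7838, 10587 and 7208 counts in wild type hearts and 9021, 9282 and 9468 counts in mutant hearts, against 14183, 11790 and 6794, and 6652, 12194 and 927 counts for Gapdh. The copies thus held more counts than Gapdh in mutant hearts 1 and 10, and in heart 10 their sum was within the range of the other hearts. In wild type heart 5 their lead, 7208 against 6794, rested on Peli2. This protein-coding gene is among the copies, with 508 counts in that heart. The part of read assignment in these values was not tested. Without Gapdh, 29 of 33 genes were above 0 and the median was again 0.18.

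**Figure D4:**
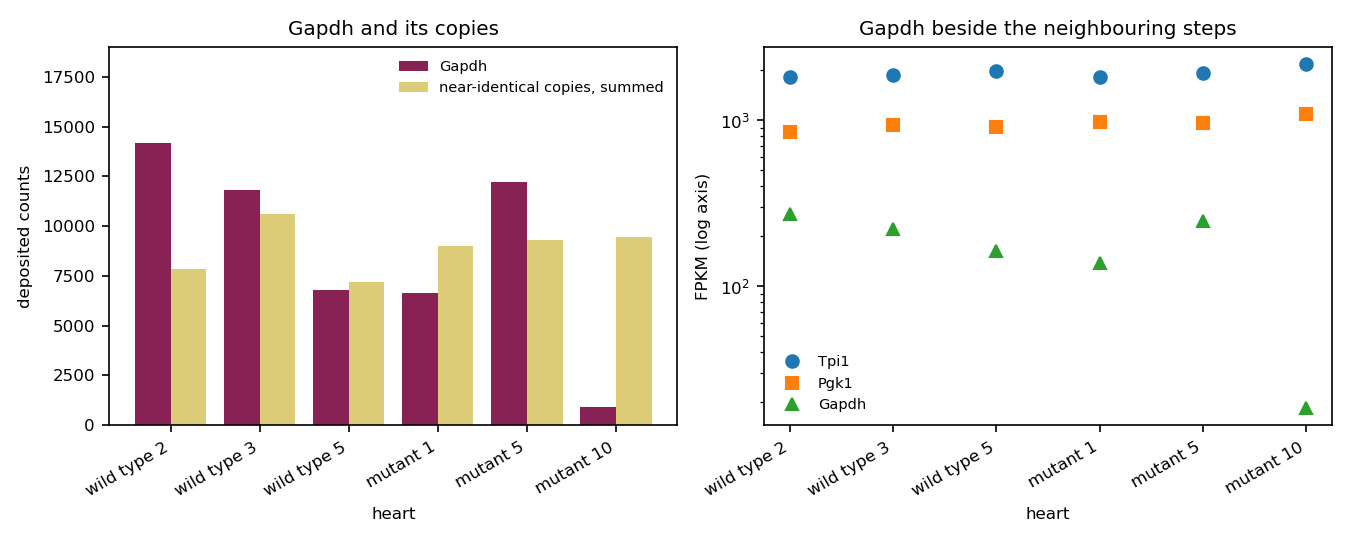
Left, deposited counts of Gapdh and the summed counts of its near-identical copies in each heart. Right, FPKM (log axis) of Gapdh and of Tpi1 and Pgk1, the neighbouring steps, in each heart. Gapdh drops to 927 counts in mutant heart 10 while the copies stay at 9468, and Tpi1 and Pgk1 are at their highest there.

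Other genes that share stretches of sequence with another gene are less certain too. Windows shared with other genes made up 66.1% of the Pgk1 transcript, 49.0% of Eno1, 37.9% of Pgam1, 18.5% of Bnip3, 14.99% of Pfkp, 6.72% of Ndrg1, 2.89% of Pkm and 1.03% of Hif1a. The remaining 25 of the 34 genes shared none, among them Aldoa, Aldoc, Ldha, Slc16a3 and Pdk1. For Pfkp and Ndrg1 the only copy found was a gene whose exons overlap theirs on the opposite strand (Pitrm1 and Gm17035). Hif1a had 0 copies, and its exons also overlap those of other genes.

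Lactate dehydrogenase and the lactate carriers close the anaerobic route, and all 4 genes had log2 fold changes above 0. Ldha, the subunit favoured under low oxygen, was at 1630.1, 1767 and 1831 CPM in wild type hearts and at 1899, 1923 and 2202 CPM in mutant hearts. All mutant hearts exceeded all wild type hearts, and the log2 fold change was 0.20 ± 0.13, with an adjusted p of 0.964 in edgeR, and 0.14 without mutant heart 10. Ldhb, the subunit of oxidative muscle, gave 0.20 ± 0.16 (0.09 without mutant heart 10 and 0.35 without wild type heart 5), and Ldha held 75.7% of the dehydrogenase FPKM in both groups. Slc16a3 (MCT4), which exports lactate from glycolytic cells, was at 239.5, 239.8 and 237 CPM in wild type hearts and at 251, 267 and 320.4 CPM in mutant hearts. The wild type hearts were nearly equal, with a coefficient of variation of 0.751% that gives no guide to the usual spread, and all mutant hearts lay above them. Slc16a3 gave a log2 fold change of 0.23 ± 0.12, and of 0.12 without mutant heart 10. Slc16a1 (MCT1), the more general carrier, gave 0.03 ± 0.11, and its sign turned with the scaling.

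Of the 4 regulators, only Pdk1 had groups that did not overlap. Pyruvate dehydrogenase kinases inhibit pyruvate dehydrogenase and so hold back the oxidation of pyruvate in mitochondria, and Pdk1 is a known HIF target. Pdk1 was at 231, 236 and 253 CPM in wild type hearts and at 257, 288 and 297 CPM in mutant hearts. Every mutant heart was higher, although mutant heart 1 and wild type heart 5 nearly touched. The log2 fold change was 0.23 ± 0.11, with an unadjusted p of 0.0667 and an adjusted p of 0.911 in edgeR. Pdk2 gave 0.11 ± 0.10 and Pdk4, the fasting-induced form, 0.19 ± 0.13. Pfkfb3, which makes the activator of phosphofructokinase, gave -0.06 ± 0.10.

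Of the oxygen-sensing genes, none passed the test and none had groups that did not overlap. Hif1a was at 293, 278 and 232 CPM in wild type hearts and at 250.3, 285 and 263 CPM in mutant hearts. The groups overlapped, and the log2 fold change was -0.0071 ± 0.12. Epas1 (HIF-2 alpha), the subunit typical of endothelium, was at 39.9, 33.1 and 25.7 CPM in wild type hearts and at 36.7, 53.5 and 42.5 CPM in mutant hearts. Only mutant heart 1 fell inside the wild type range, and the log2 fold change was 0.43 ± 0.19, with an adjusted p of 0.895 in edgeR. It was 0.26 without mutant heart 5 and 0.28 without wild type heart 5. The endothelial markers given above lay in the same direction, with sums that overlapped between groups. Their part in the level of Epas1 was not tested. Egln1 (PHD2), the main prolyl hydroxylase, was at 136, 146 and 146 CPM in wild type and at 131, 151 and 166 CPM in mutant hearts, which overlapped. Its log2 fold change was 0.07 ± 0.12, and that of Egln3 (PHD3) was 0.08 ± 0.12.

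Among the 3 HIF targets, Ndrg1, a stress-induced gene of growth arrest, was at 6.53, 7.84 and 9.41 CPM in wild type hearts and at 8.47, 11.4 and 14.9 CPM in mutant hearts. Mutant heart 1 lay below wild type heart 5, so the groups overlapped, while hearts 5 and 10 were above all wild type hearts. The log2 fold change was 0.55 ± 0.23, with an unadjusted p of 0.0419 and an adjusted p of 0.847 in edgeR's quasi-likelihood test, and it was 0.33 without mutant heart 10. Bnip3, which acts in the removal of mitochondria, gave 0.23 ± 0.24, and Ankrd37 gave -0.22 ± 0.25 at about 2 CPM. Bnip3 was at 169, 182 and 318 CPM in the wild type hearts, so wild type heart 5 exceeded all mutant hearts (247, 243 and 297 CPM), and the log2 fold change was 0.58 without that heart and 0.07 without wild type heart 2. Exons of other genes on the opposite strand covered 22.3% of the Bnip3 exons and 26.4% of those of Ankrd37, and whether the counting used strand is not given in the sources used here. Opposite-strand exons also covered 11.5% of Gpi1 and 8.43% of Ndrg1. Same-strand exons, which strand cannot separate, covered 15.3% of Pkm and 10.2% of Pfkm. Both kinds of overlap were lower in all other members.

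Ratios within a heart do not depend on scaling between hearts, so isozymes of one step were compared as log2 ratios of FPKM in 14 pairs. With 3 hearts against 3, a two-sided exact permutation test cannot go below 0.1. In 5 pairs the groups did not overlap and the exact p was 0.1, or 0.28 after adjustment over the 14 pairs. The share of other gene pairs with such separation is not given here, so the 5 have no baseline. The ratio of Epas1 to Hif1a was -4.01, -4.21 and -4.31 in wild type hearts and -3.91, -3.55 and -3.77 in mutant hearts, a difference of 0.43. The ratio of Slc2a3 to Slc2a1 was higher in mutant hearts by 0.31, that of Aldoc to Aldoa by 0.28 and that of Slc16a3 to Slc16a1 by 0.20. The ratio of Pdk2 to Pdk1 was lower, by a difference of -0.12, or -0.057 without wild type heart 2. Its groups nearly touched, at -1.038 in wild type heart 5 and -1.043 in mutant heart 10. So did those of Slc2a3 to Slc2a1, at -2.549 in wild type heart 5 and -2.521 in mutant heart 1. The other 9 pairs had exact p-values between 0.4 and 1, among them Hk2 to Hk1 and Ldhb to Ldha, whose differences were -8.05e-05 and 0.00073.

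**Figure D5:**
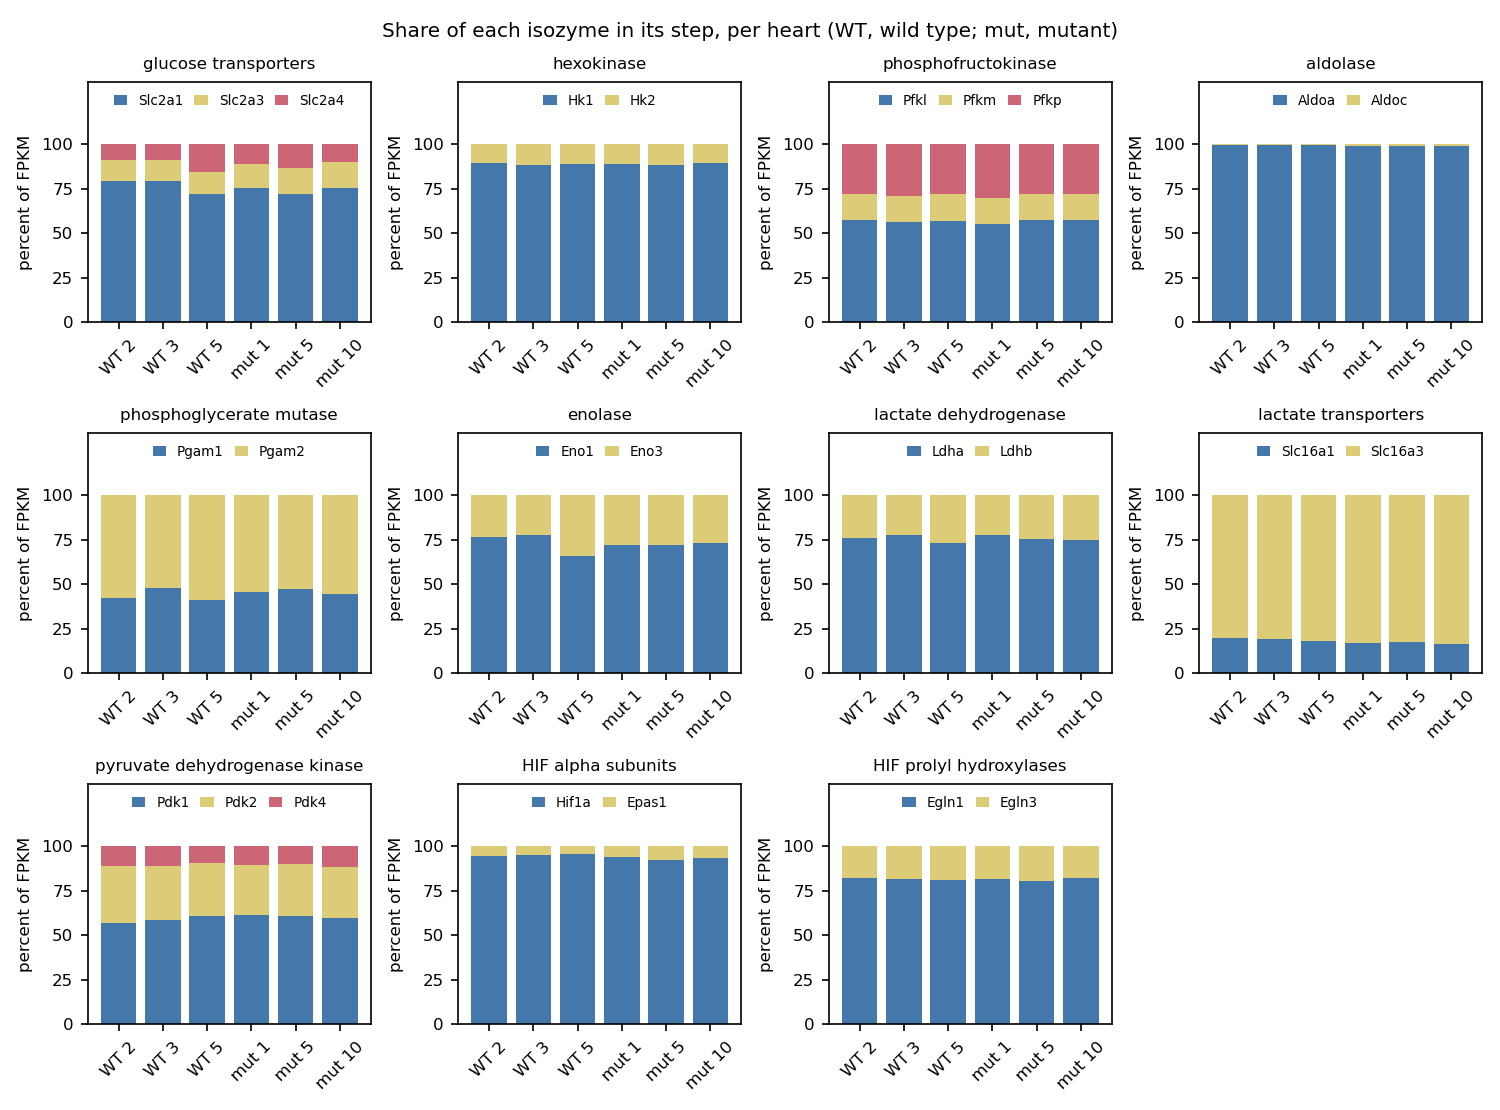
Share of each isozyme in the summed FPKM of its step (percent, stacked bars) in each of the 6 hearts, for 11 steps. The leading isozyme by FPKM is the same in all 6 hearts at every step. In wild type hearts its share runs from 99.2% for Aldoa in aldolase to 56.3% for Pgam2 in phosphoglycerate mutase. Windows of 150 bases shared with another gene make up 37.9% of the Pgam1 transcript and 0% of Pgam2. Which of Pgam1 and Pgam2 leads is therefore less certain.

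Other genes of the same pathways were less uniform. Of 28 tested genes of glycolysis and pyruvate entry outside the 34, 15 had log2 fold changes above 0 and 13 below, the median was 0.04, and 0 had an unadjusted p under 0.05. Of 37 other hypoxia genes (Pfkfb4 is in both lists), 26 were above 0 and 11 below, with a median of 0.07, and 7 had an unadjusted p under 0.05, 6 higher and 1 lower. None of either list passed an adjusted p of 0.05 in edgeR, and DESeq2 called 1.

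Ak4, a mitochondrial adenylate kinase, was at 69.8, 69.9 and 69.3 CPM in wild type and at 83.7, 100.1 and 102 CPM in mutant hearts. All mutant hearts were higher, with a log2 fold change of 0.45 ± 0.11 and an adjusted p of 0.405 in edgeR. Bhlhe40, a transcriptional repressor, was at 31.0, 29.96 and 29.7 CPM in wild type and at 36.9, 36.3 and 42.5 CPM in mutant hearts. Ero1l, an oxidase of protein folding, was at 56.4, 60.3 and 54.2 CPM in wild type and at 65.4, 73.5 and 73.4 CPM in mutant hearts. Neither gene had overlapping groups, with log2 fold changes of 0.35 ± 0.10 for Bhlhe40 and 0.31 ± 0.10 for Ero1l. Adm, the vasodilator adrenomedullin, went the other way, at 8.20, 8.05 and 10.7 CPM in wild type and 6.31, 5.09 and 6.78 CPM in mutant hearts. All its mutant hearts were lower, with a log2 fold change of -0.57 ± 0.18 and an adjusted p of 0.688 in edgeR. Vegfa, the main angiogenic HIF target, overlapped between groups, with a log2 fold change of -0.08 ± 0.14.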

How the data were processed

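RNA of 6 hearts was sequenced as paired reads of 150 bases. The published methods give trimming with Trim Galore, alignment with STAR (mm10) and featureCounts on unique alignments, whereas the submitters' processing notes name HTSeq and DESeq2. The authors deposited raw counts per gene. The deposited FPKM equal the count divided by 1 length per gene and by the heart's total. Counts were tested with edgeR 4.0.16 (R 4.3.3): quasi-likelihood fit, TMM, filterByExpr (count minimum 10), no covariate, two-sided, Benjamini-Hochberg over all genes tested. An SE is the log2 fold change over the root of F. CPM were scaled by the TMM factors. Isozyme ratios of FPKM were tested by exact permutation. Positions and transcripts came from GENCODE M21 (GRCm38), and copies were found with BLAST 2.17.0. DESeq2 1.42.0 and limma 3.58.1 were among the alternatives. Embryos give the replicates, 3 per group, and no pair of hearts agreed within counting error. Fits were tested on simulated data.

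The genes, lists and tests were chosen with earlier results of these data known. Values heart by heart were given for genes with an unadjusted p under 0.05, with groups that do not overlap, or with the most FPKM at a step with several isozymes, and, in each other list, for up to 5 genes of smallest unadjusted p under 0.05, which the list of other glycolysis genes had none of (1 gene is not reported here). Gapdh, Epas1, Bnip3 and Vegfa were added after their values were seen. The gene length correction (local regression with a span of 0.5) was also run without wild type heart 5, which was chosen after seeing the data.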

Additional observations from a re-analysis of the deposited data

How the results depend on the processing

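No member reached an adjusted p under 0.05 under any alternative run. The lowest was 0.0839 (gene length trend removed, without wild type heart 5, chosen after seeing the data). Genes of the whole table below that limit numbered 132 with DESeq2, 34 with no filter on low counts, 6 with the length trend removed, 40 with that trend removed without wild type heart 5, and 0 to 44 with 1 heart left out, while 6 passed an adjusted p under 0.1. Members with an unadjusted p under 0.05, all higher, numbered 1 with limma-voom, upper-quartile scaling or a CPM minimum of 1, 4 with no filter, 5 with the length trend removed, 8 with that trend removed without wild type heart 5, and 0 to 8 with 1 heart left out. The shares of all genes below that unadjusted limit are not given for these settings. The median log2 fold change of the members was 0.11 with the length trend removed without wild type heart 5, and between 0.093 (without mutant heart 10) and 0.24 (without mutant heart 1) with 1 heart left out. With 1 heart left out, 7 to 17 members had every mutant heart higher and 0 to 1 every mutant heart lower. Groups of fewer hearts separate more readily, and the share of all genes is not given for these fits. The 6.61% found with every heart kept is therefore no baseline for them. With 1 heart left out, 5 to 12 genes of the other lists had an unadjusted p under 0.05. DESeq2 called 1 gene of those lists. Counting ACGTG alone lowered the share of genes with a core to 66.7%. The causes of these shifts were not tested.

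With 1 heart left out, the log2 fold changes of Pfkl, Pfkm, Pfkp, Eno3 and Pdk1 moved by at most 1.5 times, and those of all other members by more for at least 1 heart. Small fold changes turned sign. Slc2a1 was at 0.021 with limma-voom and 0.0078 with no filter, and Hif1a at 0.00022 and 0.0037. Slc16a1 was at -0.0077 with total counts, -0.0018 with upper-quartile scaling, -0.0068 and -0.0069 with limma-trend on log2(FPKM + 1) and log2(FPKM + 0.1), and -0.065 with the length trend removed, where Egln1 was at -0.011. With that trend removed without wild type heart 5, Hk1 was at -0.052, Hk2 at -0.025, Gpi1 at -0.013 and Eno1 at -0.036. With 1 heart left out, the ranges were -0.17 to 0.12 for Slc2a1, -0.025 to 0.34 for Hk1, -0.030 to 0.34 for Hk2, -0.011 to 0.18 for Tpi1, -0.064 to 0.14 for Pgam2, -0.042 to 0.10 for Slc16a1, -0.10 to 0.065 for Hif1a and -0.015 to 0.15 for Egln1. The log2 ratio differences then ranged from -0.029 to 0.46 for Slc2a4 to Slc2a1, -0.038 to 0.042 for Hk2 to Hk1, -0.0030 to 0.057 for Pfkp to Pfkm, -0.083 to 0.33 for Eno3 to Eno1, -0.080 to 0.096 for Ldhb to Ldha, -0.15 to 0.026 for Pdk4 to Pdk1 and -0.017 to 0.053 for Egln3 to Egln1. No paired analysis was possible because neither the labels nor the paper record litters or pairs of hearts.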
